A study of Bos taurus with 15 samples.

Results

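Primary bovine fetal fibroblasts (BFFs) that expressed LEUTX were compared directly with BFFs that expressed wild-type (WT) ARGFX, without the control samples in the fit. The comparison used 8 of the 15 samples of the series, 4 labeled LEUTX and 4 labeled WT ARGFX, and addressed what separates the responses of the same cells to a pair of related homeobox factors. BFFs are connective tissue cells, here grown out of torso skin of a fetus aged 6 months, so every sample carries the genome of the same animal. At passage 4 the cells were electroporated with a plasmid that carried bovine ARGFX or bovine LEUTX under the constitutive CMV promoter, each with a linker and a 3xFLAG tag at the C-terminus. Puromycin at 4 µg/mL was added at 24 h to select transfected cells, and RNA was taken at 72 h. The control samples (n = 4), which received the empty plasmid and the same selection, appear below only as levels beside the others, and the 3 mutant ARGFX samples were not part of this comparison.

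ARGFX and LEUTX are PRD-class homeobox genes of the ETCHbox group, a fast-evolving set found in placental mammals. They encode transcription factors that bind DNA through a homeodomain, and are active mainly in the preimplantation embryo, around genome activation and the formation of the blastocyst. Skin fibroblasts do not normally use them. Ectopic expression in fibroblasts therefore reads out which genes a factor can move in a cell that otherwise lacks it.

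The transfected genes matched the labels in all 8 samples. ARGFX, which the deposited table lists by name, reached 4344, 3070.0, 2948 and 3004 CPM (read counts scaled to the library, after TMM normalization) in WT ARGFX replicate 1, replicate 2 and unnumbered samples a and b. Its expected count was 0 in LEUTX replicates 1, 3 and 4 and 5.67 in replicate 2. LEUTX reached 1298, 1404, 1758 and 1599 CPM in LEUTX replicates 1 to 4, and its expected count lay between 0 and 2.55 in the WT ARGFX samples. Summed over the samples, the ratio of LEUTX samples to WT ARGFX samples was 41371 for LEUTX (95% exact interval for counting error, 17728 to 127420), and the opposite ratio for ARGFX was 66950 (30759 to 182430). Neither factor was thus detected beyond a few counts in cells given the other. The remaining ETCHbox genes in the table stayed at the floor, with an expected count of at most 3 for TPRX1, 0 for TPRX2 and at most 7 for TPRX3 in any of these 8 samples. The levels of ARGFX and LEUTX cannot be set against each other, because the values are not per length, and the amount of each protein was not measured, so that the identity of the factor and its amount cannot be told apart in what follows.

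The totals ranged from 31359218 to 35178524 counts with WT ARGFX and from 26917853 to 35454192 with LEUTX, and no difference was detected by an exact permutation test (two-sided p = 0.343, smallest possible 0.0286). The 50 most abundant genes took 22.3% ± 0.46 of the counts (SD, n = 4) with WT ARGFX and 21.1% ± 0.57 with LEUTX (exact permutation p = 0.0571). A pair of WT ARGFX columns share a header and carry no replicate number, and they are called unnumbered samples a and b here. Sample b stood apart. The chi-square per degree of freedom between replicates, which is 1 for pure sampling noise, was 107 to 129 for pairs with b and 6.22 to 8.55 for the other WT ARGFX pairs. The biological coefficient of variation was 17.0% over the 4 WT ARGFX samples, 5.68% without b, and 12% over the 4 LEUTX samples. LEUTX replicates 1 and 2 (7.40) and replicates 3 and 4 (11) were closer to each other than the remaining LEUTX pairs (26.9 to 56.3). The labels give no batch for either split. The study calls its samples biological replicates, but since all cells came from 1 fetus, the p-values measure the spread between transfected cultures, not between animals.

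The groups were nevertheless separated along the main axis of variation. Over 13705 tested genes, transfected genes apart, the first principal component set the groups apart and held 70.6% of the variance, whereas the second, 17.5%, set b against the other WT ARGFX samples and spread the LEUTX samples. The root-mean-square log2 difference per gene was 0.62 to 0.75 between any LEUTX and any WT ARGFX sample and 0.20 to 0.48 within the groups.

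**Figure D1:**
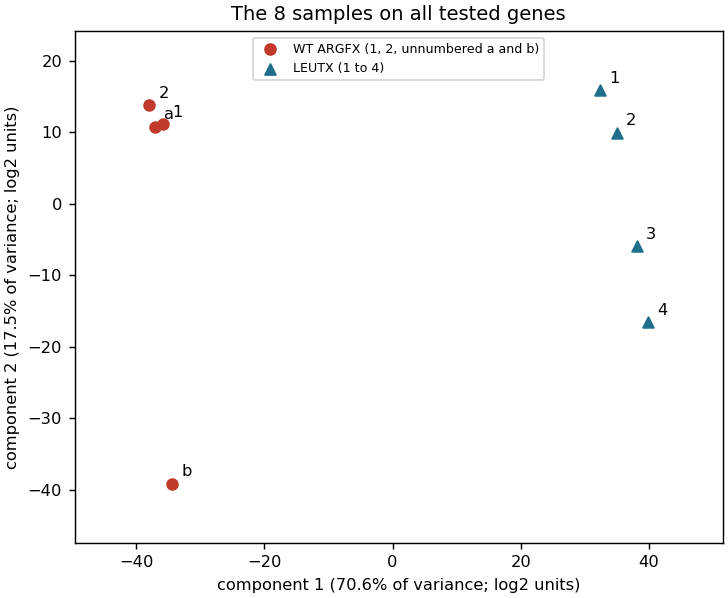
The 8 samples on the first 2 principal components of log2(CPM + 0.5) over all tested genes, with 1 point per sample (circles, WT ARGFX; triangles, LEUTX) and both axes in log2 units. The groups lie at opposite ends of component 1 (70.6% of the variance), and WT ARGFX unnumbered sample b lies far from the other 3 on component 2 (17.5%).

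The factors differed at close to equal numbers of genes in each direction, and the differences over 10-fold were mostly on the LEUTX side. Genes very low in 1 group could be called only through the other group, which bears on these widest differences. A gene was called when edgeR's quasi-likelihood test gave an adjusted p under 0.05 with a fold change over 1.5 and a mean over 5 CPM in the 8 samples. Of the 13705 genes, 937 (6.84%) were higher with LEUTX and 926 (6.76%) were higher with WT ARGFX, 13.6% in all. The samples of the groups did not overlap for 924 of the 937 and 853 of the 926, against 37.3% of all tested genes. Median absolute log2 fold changes were 0.89 and 0.91. Among the genes higher with LEUTX, 379 differed more than 2-fold, 76 more than 4-fold and 27 more than 10-fold, and the numbers on the WT ARGFX side were 390, 56 and 6. The genes higher with LEUTX took 14.4% ± 0.37 of all counts with LEUTX and 7.23% ± 0.10 with WT ARGFX, whereas those higher with WT ARGFX took 12.2% ± 0.42 with WT ARGFX and 5.73% ± 0.36 with LEUTX (SD, n = 4). In fits that left out each sample in turn, 753 of the 937 genes (80.4%) and 751 of the 926 (81.1%) were called in all 8, and without sample b the counts were 958 and 1153.

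**Figure D2:**
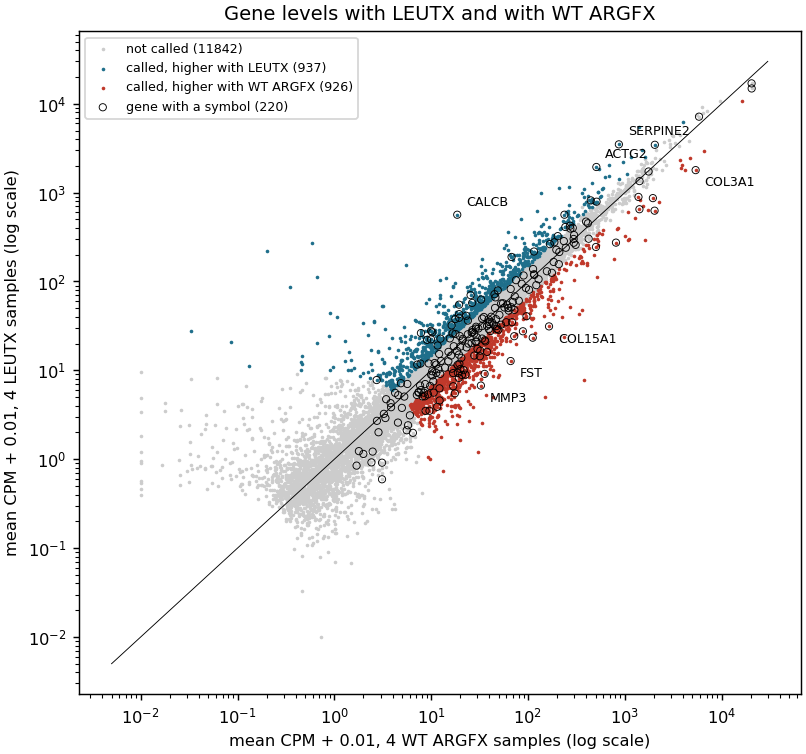
Mean CPM of each tested gene with WT ARGFX (x axis) and with LEUTX (y axis), both log scales with 0.01 added, 4 samples a group. Blue points (937) were called higher with LEUTX, red points (926) higher with WT ARGFX, and circled points are the 220 genes with a symbol. The blue points reach much further from the line of equal level than the red ones at low WT ARGFX levels. Called genes that low with WT ARGFX passed the 5 CPM limit through their LEUTX samples.

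Most genes were not called. Of 10114 genes abundant enough to be called, 8251 were not, and for 5850 (57.8%) the 95% interval of the fold change lay within 1.5-fold in either direction. The median log2 fold change over the 10114 genes was 0.01.

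Set beside the control samples, whose values come from a normalization over all 15 samples, the called genes showed which factor left its cells furthest from control. The genes higher with LEUTX had a median level of 25.8 CPM in control, 24.5 CPM with WT ARGFX and 50.3 CPM with LEUTX. For the 27 genes more than 10-fold higher with LEUTX the medians were 1.18, 0.92 and 28.3 CPM, and 12 of the genes higher with LEUTX were under 1 CPM in each WT ARGFX sample. Genes this low with WT ARGFX passed the 5 CPM limit through their LEUTX samples. The genes higher with WT ARGFX had median levels of 23.3 CPM in control, 24.7 CPM with WT ARGFX and 11.6 CPM with LEUTX, and in the 50 genes between 4- and 10-fold the medians were 40.4, 25.7 and 4.20 CPM. The 6 genes more than 10-fold higher with WT ARGFX stood at a median of 226.9 CPM in control, 32.7 CPM with WT ARGFX and 2.11 CPM with LEUTX. These level medians can come from different genes, so their ratio is not the change of a typical gene. Gene by gene, the median log2 fold change of WT ARGFX over control was −0.03 for the 50 genes. For the 6 it was −0.61 (quartiles −4.35 to 0.31). The same medians for LEUTX over control were −2.45 and −5.10. In each of these sets the LEUTX median was the one further from control. This order was not tested, and both factors are set against the same control samples.

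Among called genes without a symbol in the tables used here, the 2 furthest apart in each direction are described. ENSBTAG00000030484.2 stood at 223, 229.8, 232 and 192 CPM in the LEUTX samples and at 0.217, 0.0805, 0.117 and 0.350 CPM in the WT ARGFX samples (log2 fold change 10.18, SE 0.24, edgeR adjusted p = 4.66e-10), with 0.0717 to 0.192 CPM in control. ENSBTAG00000009382.6 stood at 24.7 to 30.7 CPM with LEUTX, where it summed to 3339 counts, against 3 counts in all with WT ARGFX and 0 in every control sample. The ratio was 1247 (95% exact interval for counting error, 426 to 6051). Both loci were thus read almost only in the cells given LEUTX. In the opposite direction, ENSBTAG00000037811.3 stood at 335, 342, 391 and 456 CPM with WT ARGFX and 6.00, 6.19, 9.89 and 9.24 CPM with LEUTX (log2 fold change −5.60, SE 0.20, edgeR adjusted p = 1.61e-08). ENSBTAG00000020676.5 stood at 179, 139, 100.2 and 187 CPM with WT ARGFX and 4.36 to 5.92 CPM with LEUTX (log2 fold change −4.93, SE 0.22, edgeR adjusted p = 5.57e-08). In control samples these genes lay at 275 to 334 CPM and 141 to 175 CPM, so that with LEUTX both were far below control. With WT ARGFX the first was above the control range in each sample, and the second overlapped that range.

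Symbols could be given to 220 of the tested genes, all taken from the list of genes that the study called upregulated with WT ARGFX on these same samples. The direction of these genes relative to control is therefore fixed by the list, and the counts below are no independent evidence of direction and say nothing of genes without a symbol. Within that list, 35 genes (15.9%) were higher with LEUTX, 50 (22.7%) were higher with WT ARGFX and 135 were not called, of which 22 were under 5 CPM. The shares over all tested genes were 6.84% and 6.76%, and both pairs of shares are the background for the counts of the gene lists below. The median log2 fold change of LEUTX over WT ARGFX was −0.21, and it ranged from −2.40 to 4.92. Of the 35 genes all had samples that did not overlap between the groups, and of the 50 genes 47 had, where the groups did not overlap for 37.3% of all tested genes. For 64 of the 220 the 95% interval lay within 1.5-fold. Without sample b, 38 and 56 were called. The set of genes that WT ARGFX was listed as raising thus contained genes that stood far higher with LEUTX, genes at a like level, and genes that with LEUTX were at or below the control level.

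The peptide precursor CALCB was the gene with a symbol that differed most. It encodes the beta form of calcitonin gene-related peptide, a vasodilator best known from sensory neurons. CALCB stood at 516, 539, 571 and 631 CPM in LEUTX replicates 1 to 4, and at 17.3, 14.1, 21.9 and 21.1 CPM in the WT ARGFX samples. Control samples held 5.81 to 8.46 CPM. The groups did not overlap, and the level was 30.4-fold higher with LEUTX (log2 fold change 4.92, SE 0.16, edgeR adjusted p = 6.66e-09). Reads of CALCB could be shared with its close relative CALCA in the authors' counting. Among the other secreted signals and receptors, SEMA3E, an axon and vessel guidance cue, was 2.00-fold higher with LEUTX (39.0 ± 4.44 against 19.5 ± 3.04 CPM, SD, n = 4), and IGFBP7, a secreted binding protein of insulin-like growth factors, 1.83-fold higher (818 ± 39.9 against 446 ± 14.7 CPM). FST, encoding follistatin, which binds and blocks activins, was on the other side. It stood at 65.2, 53.6, 76.9 and 69.1 CPM with WT ARGFX, 12.8, 12.3, 12.1 and 13.7 CPM with LEUTX, and 35.8 to 41.7 CPM in control. The difference was 5.20-fold (log2 fold change −2.38, SE 0.12, edgeR adjusted p = 1.24e-07), and the control samples lay between the groups without overlap. IL34, a ligand of the macrophage colony-stimulating factor receptor, stood at 10.8 to 13.1 CPM with WT ARGFX and 3.21 to 5.10 CPM with LEUTX, where control held 2.87 to 3.95 CPM. SOD3, the secreted superoxide dismutase, was 2.67-fold higher with WT ARGFX. Of the 14 genes of this list, 3 were higher with LEUTX, 3 were higher with WT ARGFX and 8 were not called (median log2 fold change −0.45). Among the 220 genes with a symbol these shares were 15.9% and 22.7%, and among all tested genes 6.84% and 6.76%. Of the 8 not called, FIBIN and IL17D were under the 5 CPM limit (log2 fold changes −1.26 and −0.54).

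**Figure D3:**
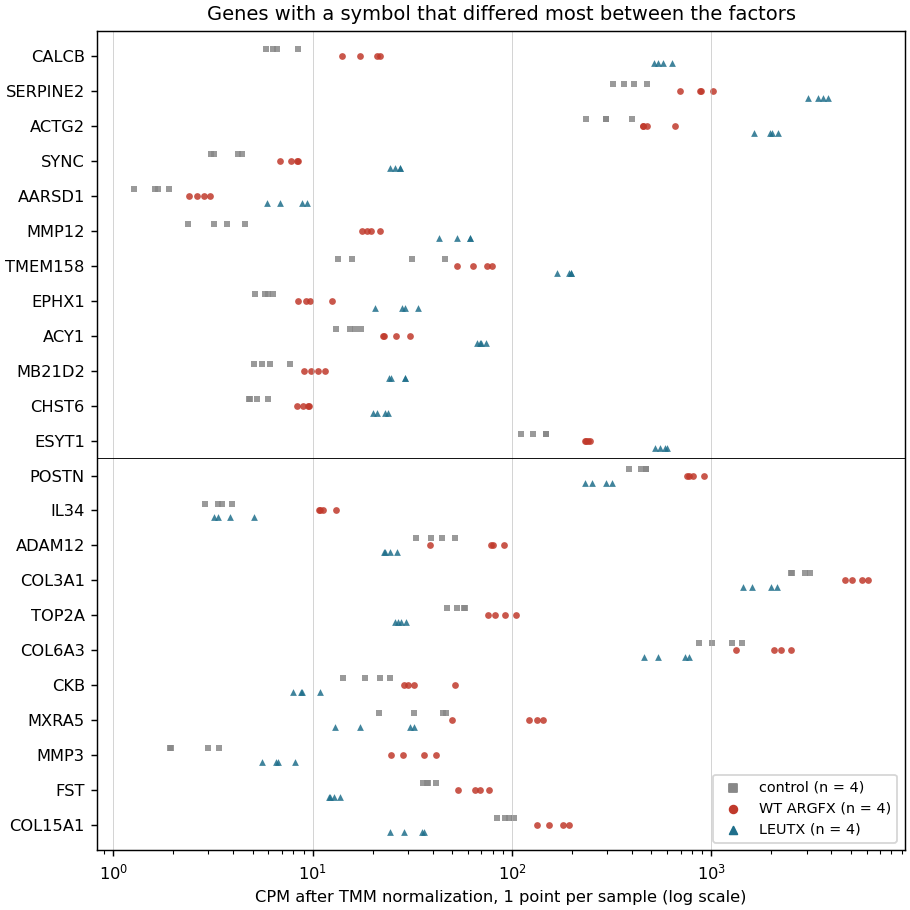
CPM on a log scale (x axis) of the 12 genes with a symbol that were furthest higher with LEUTX (upper part) and 11 of the 12 furthest higher with WT ARGFX (lower part), 1 point per sample, for control (squares), WT ARGFX (circles) and LEUTX (triangles). In the upper part the WT ARGFX points lie between control and LEUTX. That order follows from the choice of genes, which were all listed as raised by WT ARGFX over control. In the lower part the LEUTX points mostly lie at or below control, except for MMP3, which was above control with both factors.

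Extracellular matrix genes with a symbol, all from the WT ARGFX list, had calls in both directions, most of them higher with WT ARGFX. Of 12 fibroblast marker genes only 5 had a symbol. Of the 5, 0 were higher with LEUTX, 2 were higher with WT ARGFX (COL3A1 and POSTN, below) and 3 were not called (median log2 fold change −0.46). Over the 220 genes with a symbol the shares were 15.9% and 22.7%, and over all tested genes 6.84% and 6.76%. The type I collagen gene COL1A1 reached 20449 ± 1673 CPM with WT ARGFX and 14871 ± 2903 with LEUTX (SD, n = 4), and COL1A2 reached 20405 ± 1071 and 16971 ± 2677. Neither passed the test (log2 fold change −0.46, edgeR adjusted p = 0.0544, and −0.27, edgeR adjusted p = 0.210). Fibronectin, FN1, did not either (5846 ± 1593 against 7159 ± 2344 CPM). Markers of other cell types have no symbol in the tables used here and were not analysed. In bulk samples fewer cells of a type and less RNA per cell cannot be told apart.

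COL3A1, the type III collagen of skin and vessels, stood at 6094, 5715, 5076 and 4691 CPM with WT ARGFX and 1983, 2139, 1601 and 1445 CPM with LEUTX, against 2506 to 3129 CPM in control. It was 3.01-fold higher with WT ARGFX (log2 fold change −1.59, SE 0.16, edgeR adjusted p = 1.71e-05), and the LEUTX samples all lay below the control samples. COL5A1, which helps set the diameter of collagen fibrils, differed in the same direction, 2.25-fold, with 1277 to 2257 CPM against 573 to 1181 CPM. Its partner COL5A2 did not differ detectably, at 2028, 1896, 1764 and 1358 CPM with WT ARGFX and 2028, 2056, 1529 and 1302 CPM with LEUTX (95% interval of the log2 fold change −0.41 to 0.36). COL11A1, a minor fibrillar collagen of cartilage, differed the other way, with 279, 273, 243 and 177 CPM with WT ARGFX and 477, 531, 338 and 297 CPM with LEUTX (log2 fold change 0.76, SE 0.20, edgeR adjusted p = 0.0115). Of 11 fibrillar collagens 6 had a symbol, of which 1 was higher with LEUTX, 2 with WT ARGFX and 3 not called. Their median log2 fold change was −0.36, against −0.21 over the 220 genes with a symbol. Called in these directions were 15.9% and 22.7% of the 220, and 6.84% and 6.76% of all tested genes. Samples with the lower values for COL5A1, COL5A2 and COL11A1 were b among the WT ARGFX samples and replicates 3 and 4 among the LEUTX samples. COL5A1 and COL11A1 kept their calls in each fit that left out 1 sample. COL11A1 lost its call with a test against the 1.5-fold limit itself (glmTreat). It also lost the call in a fit to the 13 numbered samples of all groups without the replicate number.

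Of 34 other matrix genes 16 had a symbol, of which 8 were higher with WT ARGFX, 2 higher with LEUTX and 6 not called. The median log2 fold change of the 16 was −0.56, against −0.21 over the 220 genes with a symbol. Higher with WT ARGFX were 22.7% of the 220 and 6.76% of all tested genes. COL15A1, a collagen of the basement membrane zone, stood at 179.8, 194, 153 and 133 CPM with WT ARGFX and 35.2, 36.4, 28.8 and 24.5 CPM with LEUTX, with 84.3 to 102 CPM in control. The groups were 5.28-fold apart with control between them (log2 fold change −2.40, SE 0.16, edgeR adjusted p = 8.48e-07). MXRA5, a matrix protein of mesenchymal cells, stood at 133, 122, 143 and 50.2 CPM with WT ARGFX and 32.2, 30.7, 17.4 and 12.9 CPM with LEUTX. Sample b was far below the other WT ARGFX samples but above all LEUTX samples, and the difference was 4.81-fold (log2 fold change −2.27, SE 0.36). COL6A3, a chain of the type VI collagen that surrounds cells, stood at 2231, 2506, 2060.2 and 1326 CPM against 738, 769.8, 538 and 461 CPM, 3.24-fold higher with WT ARGFX. POSTN, or periostin, was 2.96-fold higher (811 ± 71.7 against 274 ± 39.6 CPM, SD, n = 4), and FBN1 (fibrillin 1, of microfibrils) and FMOD (fibromodulin, of collagen fibrils) had log2 fold changes of −1.12 and −1.04. The 2 genes higher with LEUTX were IGFBP7 and P3H2, a prolyl hydroxylase of collagens (72.0 ± 5.37 against 45.1 ± 4.13 CPM).

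Proteases of the matrix and their inhibitors were split. MMP3 and MMP12 are matrix metalloproteinases, stromelysin 1 and the macrophage elastase, and both stood above control with either factor. MMP3 stood at 28.3, 24.8, 36.0 and 41.5 CPM with WT ARGFX, 5.59, 6.55, 8.12 and 6.67 CPM with LEUTX and 1.93 to 3.41 CPM in control. MMP12 stood at 19.6, 17.6, 18.7 and 21.7 CPM with WT ARGFX, 43.1, 53.1, 61.9 and 61.3 CPM with LEUTX and 2.38 to 4.6 CPM in control. The factors thus had opposite orders for these proteases, with log2 fold changes of −2.27 (SE 0.18, edgeR adjusted p = 3.17e-06) for MMP3 and 1.5 (SE 0.13, edgeR adjusted p = 5.49e-06) for MMP12. SERPINE2, a serine protease inhibitor that blocks thrombin and plasminogen activators, stood at 887, 694, 878 and 1017 CPM with WT ARGFX and 3067, 3426, 3649 and 3832 CPM with LEUTX, 4.02-fold higher with LEUTX (log2 fold change 2.01, SE 0.14, edgeR adjusted p = 1.45e-06), and control held 323 to 473 CPM. ADAM12, a membrane metalloproteinase, was 2.98-fold higher with WT ARGFX, at 78.3, 91.3, 79.9 and 38.9 CPM against 22.9 to 26.3 CPM. Of 22 genes of this list 6 had a symbol, of which 2 were higher with LEUTX, 2 with WT ARGFX and 2 not called. Their median log2 fold change was −0.33, against −0.21 over the 220 genes with a symbol. Called in these directions were 15.9% and 22.7% of the 220, and 6.84% and 6.76% of all tested genes.

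Of 24 genes of smooth muscle and the contractile apparatus 11 had a symbol. Of the 11, 5 were higher with LEUTX, 0 were higher with WT ARGFX and 6 were not called. Higher with LEUTX were 15.9% of the 220 genes and 6.84% of all tested genes. The median log2 fold change of the list was 0.21, against −0.21 over the 220. A test against the 1.5-fold limit itself (glmTreat) called only 2 of the list higher with LEUTX and 0 higher with WT ARGFX. ACTG2, the smooth muscle gamma actin, stood at 1629, 2017, 1976 and 2149.6 CPM with LEUTX and 454, 453, 475 and 654 CPM with WT ARGFX, against 234 to 398 CPM in control. It was 3.82-fold higher with LEUTX (log2 fold change 1.93, SE 0.15, edgeR adjusted p = 2.93e-06). ACTA2, the smooth muscle alpha actin and a myofibroblast marker, stood at 2942, 3622, 3472 and 3779 CPM against 1854, 1765, 1745 and 2812 CPM, with 485 to 853 CPM in control. Its difference was smaller, 1.69-fold (log2 fold change 0.76, SE 0.17, edgeR adjusted p = 0.00475), and sample b came close to the lowest LEUTX sample. The actin genes are near-identical in sequence, so reads could be split between them in the authors' counting. SYNC, an intermediate filament protein of muscle, was 3.35-fold higher with LEUTX (26.3 ± 1.52 against 7.83 ± 0.73 CPM, SD, n = 4), and SMTN (smoothelin) and MYADM (the myeloid-associated differentiation marker) were 1.63- and 1.59-fold higher. Of these called genes MYADM is not contractile itself, and the study counts it with the cytoskeleton. The non-muscle myosin gene MYH9 was not called, at 1579, 1633, 1592 and 880.4 CPM with WT ARGFX and 1644, 1759.9, 1095 and 888 CPM with LEUTX (95% interval of the log2 fold change −0.62 to 0.47), nor were MYH10, LMOD1, CNN2, LMCD1 and PDLIM2.

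Of 23 cell division genes 12 had a symbol, of which 8 were higher with WT ARGFX, 1 higher with LEUTX and 3 not called. Higher with WT ARGFX were 22.7% of the 220 genes and 6.76% of all tested genes. The median log2 fold change of the 12 was −1.19, the largest of any list in absolute size. Counts of 8 and 1 held in every fit that left out a sample and under each other normalization. A test against the 1.5-fold limit itself (glmTreat) called 5 and 0. TOP2A, the topoisomerase of dividing cells, stood at 82.3, 91.7, 105 and 75.4 CPM with WT ARGFX and 29.5, 27.6, 26 and 26.9 CPM with LEUTX. The control samples lay between them at 47.0 to 57.8 CPM, and the groups were 3.22-fold apart (log2 fold change −1.69, SE 0.11, edgeR adjusted p = 9.12e-07). PIMREG, a mitotic protein, was 2.53-fold higher with WT ARGFX (22.6 ± 2.18 against 8.94 ± 1.00 CPM, SD, n = 4). PLK4, the kinase of centriole duplication, had a log2 fold change of −1.01. For KIF20B and CIT, a kinesin and a kinase of cytokinesis, the groups overlapped because sample b was low (11.3 CPM against 20 to 23.1 CPM, and 17.6 CPM against 33.8 to 39.3 CPM). Among the genes not called, CDKN3 and CENPK were under the 5 CPM limit (log2 fold changes −1.40 and −0.95), and ATAD2 had a log2 fold change of −0.26. The gene higher with LEUTX, CDKN2C, encodes an inhibitor of the cyclin-dependent kinases that drive entry into S phase, and stood at 16.3, 17.9, 20.4 and 21.5 CPM with LEUTX and 9.41, 11.2, 12 and 14.1 CPM with WT ARGFX (log2 fold change 0.71, SE 0.13, edgeR adjusted p = 0.00177). Common markers of cycling cells such as MKI67 have no symbol in the tables used here and were not analysed.

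**Figure D4:**
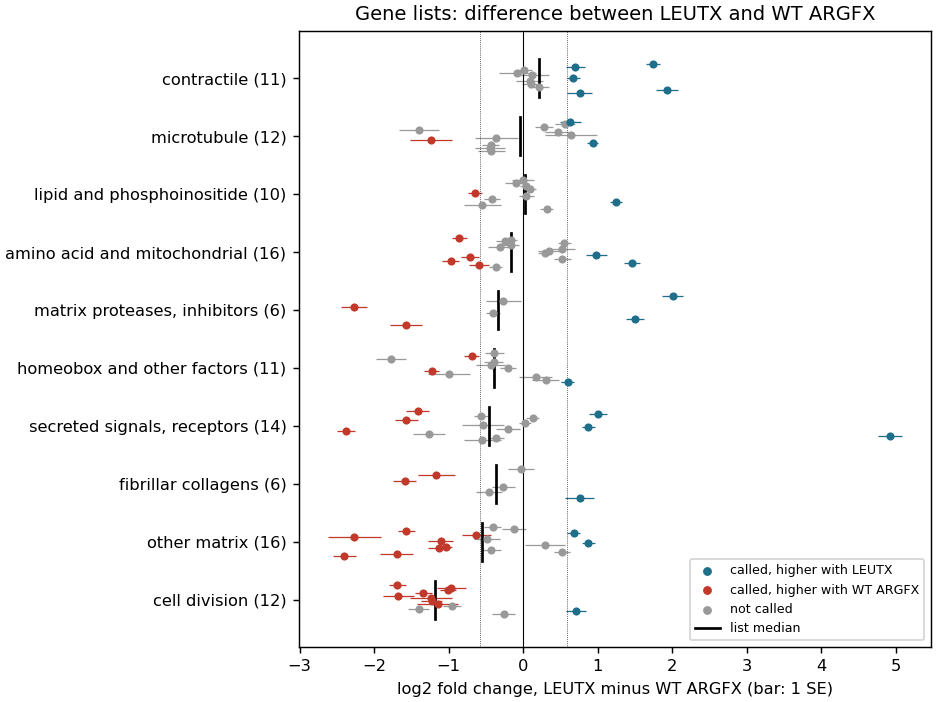
Log2 fold change of LEUTX over WT ARGFX (x axis) for each member of 10 gene lists that had a symbol, with a bar of 1 SE. The list median is a vertical line, and dotted lines mark 1.5-fold. Blue and red points were called higher with LEUTX and with WT ARGFX, and gray points beyond the dotted lines either failed the test or were under 5 CPM. Cell division has its median at −1.19, and the contractile list, which includes MYADM, has called members only on the LEUTX side.

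Genes of the cytoskeleton differed in both directions. IQGAP3, a scaffold protein of proliferating cells, was 2.34-fold higher with WT ARGFX, and INKA1, an inhibitor of the kinase PAK4, 1.93-fold. EPB41L4B, a membrane-cytoskeleton linker, was 1.82-fold higher with LEUTX (22.7 ± 1.11 against 12.5 ± 0.80 CPM, SD, n = 4). Of 12 microtubule genes 2 were higher with LEUTX, 1 with WT ARGFX and 9 were not called (median −0.04). Without sample b these counts were 3 and 4. For comparison, 15.9% and 22.7% of the 220 genes with a symbol, and 6.84% and 6.76% of all tested genes, were called in these directions. TEDC1, among the 9 not called, was under the 5 CPM limit (log2 fold change −1.40). KIF20B, the microtubule gene higher with WT ARGFX, and IQGAP3 are also counted above among the cell division genes. EML2, a microtubule-associated protein, was 1.91-fold higher with LEUTX with little spread (62.6 ± 1.93 against 32.8 ± 1.55 CPM), whereas the tubulin TUBB6 was close to the fold limit at 1.55-fold, and fell under it without WT ARGFX replicate 1 or 2 (log2 fold change 0.56 in each fit).

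Transcription factors with a symbol, homeobox genes included, were mostly not called, with 1 of 11 higher with LEUTX, 2 with WT ARGFX and 8 not called (median −0.40). The shares were 15.9% and 22.7% over the 220 genes with a symbol and 6.84% and 6.76% over all tested genes. JDP2, a repressor of the AP-1 family, stood at 19.4, 20.2, 21.1 and 22.5 CPM with WT ARGFX and 8.12, 10.2, 8.72 and 8.38 CPM with LEUTX, 2.35-fold higher with WT ARGFX. SNAI2 (Slug), a factor of mesenchymal cells, was 1.61-fold higher with WT ARGFX, and its levels with LEUTX overlapped those in control (28.5 to 36.0 against 28.4 to 35 CPM). The clock factor ARNTL was 1.51-fold higher with LEUTX, at the fold limit, with 32.5 to 40.5 CPM against 23.1 to 24.7 CPM. It fell under that limit without unnumbered sample a (log2 fold change 0.58) or b (0.57) and without LEUTX replicate 1 (0.54) or 2 (0.58).

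Metabolic genes also had calls in both directions. Of 20 genes of amino acid and mitochondrial metabolism 16 had a symbol. Of the 16, 2 were higher with LEUTX, 4 with WT ARGFX and 10 were not called (median −0.17). That is near the 15.9% and 22.7% of the 220 genes with a symbol (median −0.21). The shares over all tested genes were 6.84% and 6.76%. ACY1, which frees amino acids from their acetylated forms, stood at 66.9, 69.4, 70.2 and 74.3 CPM with LEUTX and 22.7, 22.5, 26.2 and 30.7 CPM with WT ARGFX (log2 fold change 1.46, SE 0.11, edgeR adjusted p = 2.53e-06), and BCAT2, the mitochondrial branched-chain aminotransferase, was 1.97-fold higher with LEUTX. ALDH1L2, a mitochondrial enzyme of folate metabolism, and SUOX, the sulfite oxidase, were 1.96- and 1.81-fold higher with WT ARGFX, and ASPA, which cleaves N-acetylaspartate, 1.64-fold. For ALDH1L2 and SUOX the levels with LEUTX (34.9 ± 4.83 and 9.31 ± 0.18 CPM) were near those in control (36.4 ± 5.00 and 9.88 ± 0.26 CPM). Of 10 genes of lipid transfer and phosphoinositides, ESYT1, a lipid transfer protein that tethers the endoplasmic reticulum to the plasma membrane, was 2.37-fold higher with LEUTX (519, 588, 554 and 596 against 234, 231, 242 and 245 CPM), INPP5B, a phosphoinositide phosphatase, was 1.56-fold higher with WT ARGFX and 8 were not called (median 0.02).

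Of the remaining genes with a symbol that were furthest higher with LEUTX, EPHX1, the microsomal epoxide hydrolase, and TMEM158 were each 2.79-fold higher (27.8 ± 5.39 against 9.97 ± 1.72 CPM, and 189 ± 14.3 against 67.7 ± 11.9 CPM, SD, n = 4). AARSD1, which edits mischarged alanyl-tRNA, MB21D2 and CHST6, a sulfotransferase of keratan sulfate, were 2.85-, 2.61- and 2.43-fold higher. AARSD1 lay near the 5 CPM limit and was not called without LEUTX replicate 3 or 4 (log2 fold change 1.41 in each fit). CKB, the brain-type creatine kinase, was 3.91-fold higher with WT ARGFX, at 30.2, 28.7, 32.2 and 51.5 CPM against 8.75, 8.84, 7.97 and 10.9 CPM. MAGED1, an adaptor protein of cell death signaling, stood at 278, 278, 271 and 358 CPM with WT ARGFX, 281, 321, 292 and 309.8 CPM with LEUTX and 140.0 to 169 CPM in control. Its log2 fold change between the factors was 0.02 (95% interval −0.21 to 0.25), so that the interval kept the levels within 1.5-fold of each other. Of a list of 39 genes that the study names in its text 9 had a symbol. Of the 9, 3 were higher with LEUTX (ACTG2, SMTN and MYADM), 2 were higher with WT ARGFX (COL15A1 and COL6A3) and 4 were not called. The shares in these directions were 15.9% and 22.7% over the 220 genes with a symbol. Over all tested genes they were 6.84% and 6.76%.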

How the data were processed

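RNA was sequenced as paired reads from transfected BFFs. The authors trimmed reads with Trimmomatic, ran kallisto 0.46.1 on a transcriptome of ARS-UCD1.2 extended by the ETCHbox genes, and summed to genes with tximport. What was deposited is a table of expected counts (21665 genes, 15 samples), not normalized. No sample column went unused. Groups follow the titles, and the headers match them, apart from the pair of WT ARGFX columns with the same header. Intervals for ratios cover counting error only.

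Counts were rounded to whole numbers and fitted in R 4.3.3 with edgeR 4.0.16 (filterByExpr, TMM, quasi-likelihood test, Benjamini-Hochberg adjustment) on the 8 samples alone, where 13707 genes were tested, with SEs computed from the F statistics. The study used DESeq2 and a mean TPM, for which a mean CPM over 5 stands in. Control CPM were normalized over all 15 samples, which put the CPM of the other samples 0.26% to 3.59% higher than over the 8. On simulated counts for these 13707 genes, the fit recovered 98% of 50 genes changed 1.75-fold, 96% at 2-fold and 100% at 3- and 4-fold. It made 5 false calls, and DESeq2 made 11. The counts were drawn independently for each gene, with far fewer changed genes than were called here. They held no shift shared by many genes such as that of sample b, so these figures do not cover such a shift.

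Named genes were the ETCHbox rows, the 12 called genes with a symbol furthest in each direction whose groups do not overlap, up to 3 called genes in each direction from each list, 2 and 2 genes without a symbol, and the 3 most abundant genes not called with an absolute log2 fold change under 0.1. Other list members are named to complete a list. The lists share some members, so their counts are not separate from each other. One of the genes so named and 1 of the lists are not reported here. The comparison, lists and settings were chosen with earlier results of these data known. Symbols came from 5 rows of the table and, for 220 of 232 identifiers, from a supplementary list of genes called upregulated with WT ARGFX. The RefSeq table matched 0 identifiers. Lists of interferon-stimulated, pluripotency, trophoblast and other cell type genes had 0 members with a symbol and were not analysed here. The alternatives were DESeq2 1.42.0, other normalizations, filters and thresholds, a fit to all 15 samples, a replicate block, a surrogate variable (sva 3.50.0) and each sample left out in turn.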

Additional observations from a re-analysis of the deposited data

Results flagged for a closer look

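In 11 of 122 groups of 4 samples examined, 1 sample lay far from the other 3 by Dixon's criterion at 95%, where chance gives about 6.1. Unnumbered sample b gave 7 of the 11. In sample b, ACTG2 was at 654 CPM against 453 to 475 CPM in the other WT ARGFX samples, ACTA2 at 2812 against 1745 to 1854 CPM, CKB at 51.5 against 28.7 to 32.2 CPM, BCAT2 at 21.8 against 14 to 14.7 CPM, SNAI2 at 61.2 against 49.7 to 49.8 CPM and MAGED1 at 358 against 271 to 278 CPM. MYH9 was low in sample b, at 880.4 against 1579 to 1633 CPM. The transfected gene ARGFX stood at 4344 CPM in WT ARGFX replicate 1, above the 2948 to 3070.0 CPM of the others. ENSBTAG00000009382.6 was at 0 CPM in WT ARGFX replicate 2 and at 0.0292 to 0.0318 CPM in the others, a difference of 1 count. In the LEUTX samples, TMEM158 was lowest in replicate 1, at 168 against 193 to 198 CPM, and EPB41L4B was lowest in replicate 3, at 21.1 against 23.1 to 23.4 CPM.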

How the results depend on the processing

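The counts of called genes depended most on the thresholds. Without the CPM threshold 1463 genes were higher with LEUTX and 1531 with WT ARGFX, without the fold change threshold 2041 and 1916, and with a test against the 1.5-fold limit itself (glmTreat) 506 and 479. Under the other settings both counts stayed within 1.5 times the 937 and 926 of the report. Leaving out each sample gave 849 to 964 genes higher with LEUTX and 872 to 1153 higher with WT ARGFX, DESeq2 gave 934 and 939, and library totals without TMM gave 794 and 1104. For the 57 named genes, 1166 of 1197 values kept their status as called or not called, and 31 kept direction but lost the call. No called gene reversed, and 41 genes kept their status under all 21 settings. These include genes named as not called, whose sign could change. MAGED1 had a log2 fold change of 0.02 in the main fit and −0.04 with library totals without TMM. ARNTL lost its call most often. The replicate numbers in the titles link no samples by animal or day, and the correlation of deviations within the numbers shared was 0.21 and 0.19. When the replicate number entered as a block in a fit to the 13 numbered samples, 1015 genes were higher with LEUTX and 996 with WT ARGFX, against 1049 and 1012 without the number in that fit. The share of counts in the 50 most abundant genes, 1.28 percentage points lower with LEUTX, had an exact permutation p of 0.0571, and leaving out 1 sample gave differences of −1.56 to −1.13, the first with p = 0.0286 without LEUTX replicate 2. Genes under about 5 CPM are those that the depth limits most.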

Other observations

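Beyond the gene lists, 31 of the genes with a symbol were called, 14 higher with LEUTX (log2 fold change 0.62 to 1.51) and 17 higher with WT ARGFX (−1.97 to −0.60). The following were chosen after their values were seen. Higher with WT ARGFX were ANPEP, the cell surface aminopeptidase N (16.9 ± 2.35 against 6.62 CPM with LEUTX, log2 fold change −1.35, SE 0.13), RFLNB, a partner of filamins (96.5 ± 7.74 against 40.6 CPM, −1.25), and the chromatin genes SMARCA1 (−0.79) and HDAC5 (−0.60). Higher with LEUTX were SERTAD4 (22.3 against 9.96 ± 0.66 CPM, log2 fold change 1.16, SE 0.09), the kinase NEK1 (1.14), JCAD, a junction protein of endothelial cells (0.91), and CAPN1, the calpain 1 protease (425 against 272.7 ± 24.1 CPM, 0.64). Outside these, NQO1, a quinone reductase and the only stress response gene with a symbol, was higher with LEUTX (57.4 ± 6.75 against 26.5 ± 3.84 CPM, SD, n = 4, log2 fold change 1.12, SE 0.12, edgeR adjusted p = 3.92e-05), and TYK2, the only member of the JAK/STAT list with a symbol, was not called (log2 fold change 0.19, 95% interval −0.14 to 0.51).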
